A study of Mus musculus with 55 samples.

Results

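Toll-like receptors are the membrane sensors with which innate immune cells detect microbial products, and this report follows 10 genes of that system through sorted mouse bone marrow cells. The 10 genes were taken by symbol: the receptors Tlr1, Tlr2, Tlr4, Tlr6, Tlr7, Tlr9 and Tlr13, the adaptors Myd88 and Ticam1, and the co-receptor Cd14. Each symbol occurred once in both count tables, which hold 55421 and 35974 gene rows. The study asked how loss of Tet2, a methylcytosine dioxygenase, changes innate immune signalling in blood stem and progenitor cells, and whether the DNA-sensing adaptor Sting takes part.

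The first set of libraries covers 6 populations from wildtype (WT) mice and from mice labelled Tet2-/-. These are long-term and short-term hematopoietic stem cells (LT-HSC and ST-HSC), common myeloid progenitors (CMP), granulocyte-macrophage progenitors (GMP), megakaryocyte-erythroid progenitors (MEP) and common lymphoid progenitors (CLP). There were 22 WT libraries (3 of LT-HSC, 3 of ST-HSC and 4 of each other population) and 24 libraries labelled Tet2-/- (4 of each population). The knockout was a floxed Tet2 allele cut by Mx1-Cre, which is switched on by interferon after injection of poly(I:C), a double-stranded RNA that Tlr3 itself detects, and the mice were kept for months after the injections. Mx1-Cre is not limited to blood cells, and whether the WT mice also received poly(I:C) is not stated. The second set holds LT-HSC only, from WT, Sting-/- and Tet2;Sting DKO mice (3 libraries each); the double knockout carries the same floxed Tet2 and Mx1-Cre on a Sting-/- background. Small pools of cells were sorted by surface markers and amplified as full-length cDNA. The study counts its libraries as individual mice, and whether one number in different populations marks the same mouse is not stated.

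Total counts were 50458473 to 102148079 in the 46 libraries of the first set and 26776142 to 78681657 in the 9 of the second, with 13754 to 20964 and 9381 to 11527 features detected. No pair of libraries held identical values. In the first set, Tet2 counts were not lower in libraries labelled Tet2-/- (6.10 to 72.7 CPM, the usual depth-normalised count unit, scaled here by TMM) than in WT (2.26 to 41.7 CPM). In the second set Tet2 was at 24.7, 0 and 0 CPM in WT and at 41.4, 19.6 and 1.30 CPM in Tet2;Sting DKO. Tmem173, the gene of Sting, reached 6333 counts in a library labelled Sting-/-. It was at 45.3, 34.1 and 0 CPM in WT, 121.5, 0 and 63.45 CPM in Sting-/- and 0, 0.191 and 26.2 CPM in Tet2;Sting DKO. Gene-level counts do not resolve the deleted part of either gene, so the genotypes stand here as labelled. The Y-linked genes Eif2s3y and Ddx3y were at 0 in all 46 libraries of the first set. In the second set the WT libraries held Xist (89.7 to 240 CPM) and at most 8 counts of Eif2s3y. The 6 libraries labelled Sting-/- or Tet2;Sting DKO held 157 to 314 CPM of Eif2s3y. Of these 6, Sting-/- replicate 1 also had 806 counts of Xist (15.5 CPM), and the others had at most 0.247 CPM. Sex and genotype therefore cannot be told apart in the comparisons with WT. Tlr7 and Tlr13 lie on the X chromosome. GMP and MEP carried their markers. The sum of 6 GMP genes (Mpo, Elane, Prtn3, Ctsg, Ms4a3, Fcgr3) was 31829 to 46034 CPM in GMP and 13.7 to 83.3 CPM in MEP. That of 6 MEP genes was 13106 to 19179 CPM in MEP and 24.1 to 75.1 CPM in GMP. The sum of 6 LT-HSC genes did not separate the WT stem cells, with 331 to 556 CPM in LT-HSC and 370 to 394 CPM in ST-HSC. The sum of 6 CLP genes was 1478 to 1958 CPM in WT CLP, with Rag1 at 0, and 553 to 2823 CPM in CLP labelled Tet2-/-. In WT ST-HSC it was 117 to 209 CPM. CLP libraries were less uniform, as described with their values.

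As background, Toll-like receptors at the cell surface (Tlr1, Tlr2, Tlr4 and Tlr6) bind bacterial lipids and lipoproteins, with Tlr2 pairing with Tlr1 or Tlr6 and with Cd14 handing lipopolysaccharide to Tlr4. The receptors Tlr7, Tlr9 and Tlr13 sit in endosomes and bind single-stranded RNA, unmethylated CpG DNA and bacterial ribosomal RNA. Myd88 carries the signal of nearly all of them to NF-kB, whereas Ticam1, also called TRIF, serves Tlr3 and Tlr4 and leads to interferon production. Stem and progenitor cells of the marrow are known to express some of these receptors and to respond to their ligands.

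In mm10, the genome build used, Tlr1 and Tlr6 lie side by side on the minus strand of chromosome 5 (chr5:64924679-64933563 and chr5:64952031-64960097). Of the 50-base stretches in annotated Tlr1 transcripts, 13.6% also occur in Tlr6, and 12.3% of those of Tlr6 occur in Tlr1. Some reads of this pair may therefore not be placed, and their share was not measured. Tlr4 shared 1 such stretch with another gene and the other 7 shared none. Tlr2 lies on chr3:83836272-83841767, Tlr4 on chr4:66827584-66930284, Tlr7 on chrX:167304929-167330558, Tlr9 on chr9:106222598-106226883, Tlr13 on chrX:106143204-106160493, Ticam1 on chr17:56269319-56276786 and Cd14 on chr18:36725067-36726798. Myd88 (chr9:119335934-119341411) has 290 exonic bases, 11.3% of its exonic length, on the opposite strand from exons of Acaa1a, and how the counting treated strand is not given in the sources used here. All 10 are protein-coding genes, and all values are counts over their exons.

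The first question was where in the hematopoietic tree these genes are expressed. In WT, 6 of the 9 genes that passed the low-count filter differed among the 6 populations in edgeR's quasi-likelihood F test (Benjamini-Hochberg adjusted p under 0.05): Tlr1, Tlr2, Tlr4, Tlr7, Ticam1 and Cd14. Tlr6, Tlr13 and Myd88 did not pass, and Tlr9 was too low to test. Of all 20006 features tested, 44.6% passed. DESeq2 also passed 6, with Myd88 in place of Tlr1. Without all WT libraries of replicate number 2, 3 genes passed (Tlr1, Tlr7 and Cd14), without number 3, 4 did (Tlr1, Tlr4, Tlr7 and Ticam1), without number 4, 2 did (Tlr1 and Tlr7), and without number 5, 2 did (Tlr7 and Ticam1). With the replicate number as a block 5 passed, and Tlr2 did not. GMP held the highest WT means of Tlr1, Tlr2 and Cd14, MEP held the lowest WT mean of Tlr2, Tlr4, Tlr7, Myd88, Ticam1 and Cd14, and Myd88 was present in every library. In sorted bulk samples, fewer expressing cells and less RNA per cell cannot be told apart.

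**Figure D1:**
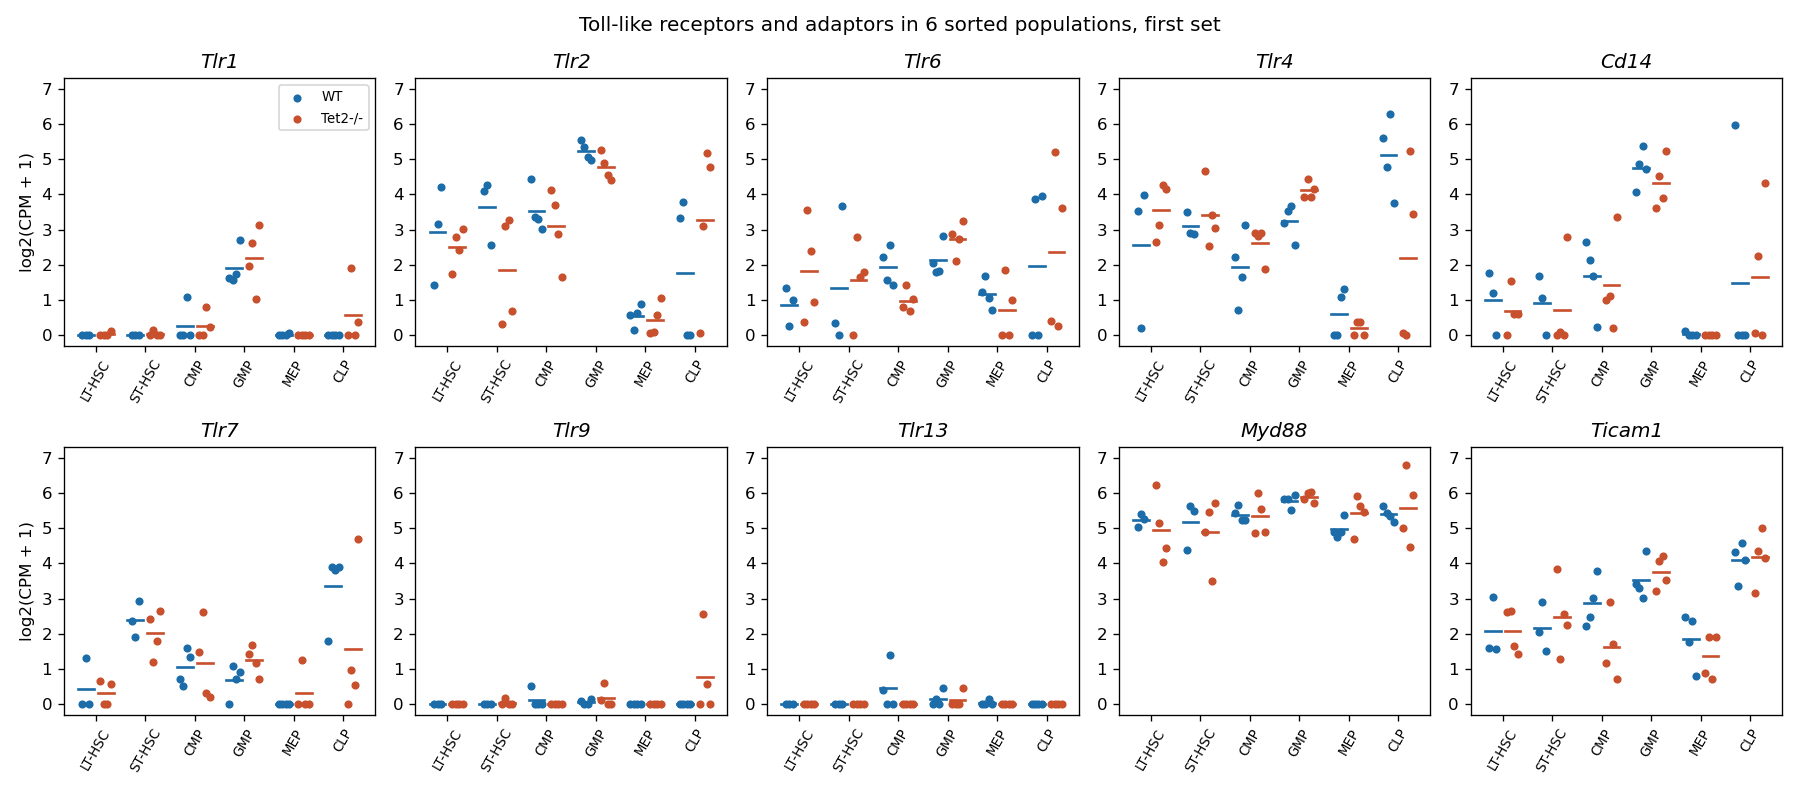
Level of each gene in the 46 libraries of the first set, as log2(CPM + 1) on the vertical axis, for 6 populations on the horizontal axis. Points are libraries, WT in blue and those labelled Tet2-/- in red, and bars are group means on this scale. WT means of Tlr1, Tlr2 and Cd14 are highest in GMP. Most MEP points lie near 0 for Tlr1, Tlr2, Tlr4, Tlr7 and Cd14, and Myd88 is high in all populations.

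Tlr2, the receptor for bacterial lipoproteins, was the most abundant receptor in GMP. WT GMP libraries held 45.9, 39.4, 32.4 and 30.7 CPM, and WT MEP libraries held 0.472, 0.0956, 0.554 and 0.837 CPM. The WT CMP libraries lay between them at 20.6, 9.19, 8.87 and 7.10 CPM. Stem cells also carried Tlr2, with 1.69, 7.96 and 17.4 CPM in WT LT-HSC and 16.1, 18.3 and 4.92 CPM in WT ST-HSC. GMP was thus separate from CMP, and CMP from MEP, whereas LT-HSC, ST-HSC and CMP overlapped. The F test gave Tlr2 an adjusted p of 0.034, a call lost on leaving out any 1 of the 4 replicate numbers, while the contrast of MEP with CMP did not pass in edgeR's test (log2 fold change -4.49 ± 1.43 (SE), adjusted p = 0.0519).

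Tlr1, a partner of Tlr2, was read mainly in GMP among the WT libraries. Its WT GMP values were 2.08, 1.98, 2.36 and 5.51 CPM. It had no counts in any WT library of LT-HSC, ST-HSC or CLP, 3 counts in 1 WT MEP library, and 87 counts in 1 WT CMP library. Against a floor of 3 counts per library, the mean in WT GMP (2.98 CPM) was at least 69.8-fold higher than in LT-HSC, at least 73.6-fold higher than in ST-HSC and at least 42.5-fold higher than in CLP. The floor covers counting error alone, and the spread between libraries is not in these bounds. The libraries labelled Tet2-/- held 2.89, 5.18, 1.04 and 7.84 CPM in GMP, 0, 2.72, 0 and 0.284 CPM in CLP and 0 in all 4 MEP libraries, so that 1 CLP library lay above the lowest GMP library. The WT F test gave an adjusted p of 0.00728 in edgeR, and Tlr1 did not pass with DESeq2. As its WT counts lay almost wholly in GMP, it passed the low-count filter through that group and had to differ, so this p is no support.

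Tlr6, the other partner of Tlr2, was read in all populations. Its mean in WT was 6.98 ± 8.07 CPM in CLP, 3.96 ± 6.63 CPM in ST-HSC, 3.55 ± 1.70 CPM in GMP, 3.05 ± 1.51 CPM in CMP, 1.32 ± 0.648 CPM in MEP and 0.911 ± 0.668 CPM in LT-HSC (SD, n = 3 for the stem cells and 4 for the others). GMP libraries lay above all WT LT-HSC and MEP libraries, CMP libraries lay above all LT-HSC libraries, and the F test did not pass (edgeR adjusted p = 0.699). Tlr6 was present where Tlr1 was nearly absent: in LT-HSC every library of both genotypes had counts of Tlr6, from 0.197 to 10.8 CPM.

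The start regions of this pair and of Tlr2 are printed because the genes act together yet differ in where they were read. RefSeq gives 300-base windows (250 bases before the transcript start and 50 after) on GRCm38.p6, the patch series of mm10, for 7 of the 10 genes. They were searched on both strands for GAGGAA, the core of sites of the myeloid factor PU.1, and for the core of the interferon-stimulated response element (ISRE), a pair of GAAA blocks with 2 free bases between them. Over all 32851 windows of the table, 28.3% held GAGGAA and 3.44% held the ISRE core. Capitals mark matches to either motif, with positions counted from the start. Of the 2 Tlr1 windows, chr5:64933509-64933808 (minus strand) held 1 GAGGAA at position -23, and the other (chr5:64932650-64932949, not printed) held neither motif and 9 CpG dinucleotides. Tlr2 (chr3:83841559-83841858, minus strand) held neither motif, and 1 of the 2 Tlr6 windows (chr5:64959117-64959416, minus strand) held 2 overlapping ISRE core matches.
Tlr1: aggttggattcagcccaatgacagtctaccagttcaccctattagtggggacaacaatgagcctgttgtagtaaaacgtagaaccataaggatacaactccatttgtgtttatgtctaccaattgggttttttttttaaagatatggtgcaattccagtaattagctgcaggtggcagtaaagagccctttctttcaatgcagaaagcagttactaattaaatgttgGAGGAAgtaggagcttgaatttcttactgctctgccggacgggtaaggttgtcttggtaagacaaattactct
Tlr2: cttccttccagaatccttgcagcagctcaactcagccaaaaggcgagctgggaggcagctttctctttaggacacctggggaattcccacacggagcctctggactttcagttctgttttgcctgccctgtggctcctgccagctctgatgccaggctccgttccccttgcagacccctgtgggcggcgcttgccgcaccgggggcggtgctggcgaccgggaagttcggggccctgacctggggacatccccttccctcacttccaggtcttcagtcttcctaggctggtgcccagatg
Tlr6: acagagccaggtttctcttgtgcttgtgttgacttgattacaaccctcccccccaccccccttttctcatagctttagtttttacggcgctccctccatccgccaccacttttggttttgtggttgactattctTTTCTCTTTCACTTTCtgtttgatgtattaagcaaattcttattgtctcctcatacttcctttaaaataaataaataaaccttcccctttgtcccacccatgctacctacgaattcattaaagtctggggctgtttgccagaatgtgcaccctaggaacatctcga
These matches describe letters in the windows and are no evidence of binding. The Tlr2 window was rich in G and C (62%) and held 11 CpG dinucleotides, against a median of 7 over all windows, and the printed Tlr1 window held 3.

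Tlr4, the lipopolysaccharide receptor, was read in each of the 6 WT populations. WT stem cells carried it, with 10.5, 0.160 and 14.9 CPM in LT-HSC and 10.3, 6.47 and 6.31 CPM in ST-HSC. WT GMP libraries held 8.04, 10.5, 11.8 and 4.93 CPM, WT CMP libraries 3.67, 0.627, 2.14 and 7.74 CPM, and WT CLP libraries 47.6, 26.6, 76.6 and 12.6 CPM. In WT MEP, 2 of the libraries had no counts and the others had 1.11 and 1.497 CPM. CLP was above every other WT group except that its lowest library lay within the range of LT-HSC, and LT-HSC, ST-HSC and GMP overlapped. The F test gave an adjusted p of 0.0219 in edgeR, and no single step between neighbouring populations passed.

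Cd14, which passes lipopolysaccharide to Tlr4, had its highest WT mean in GMP (27.6 ± 10.4 CPM, SD, n = 4), followed by CLP (15.4 ± 30.9 CPM), where 1 library carried all the counts. WT GMP libraries held 15.8, 28.2, 41.0 and 25.5 CPM and WT CMP libraries 5.31, 3.38, 2.19 and 0.169 CPM. Of the 8 MEP libraries of both genotypes, 7 had no counts of Cd14 and 1 had 4 counts. GMP libraries lay above all CMP and MEP libraries in both genotypes. WT LT-HSC held 2.38, 1.30 and 0 CPM and WT ST-HSC 2.20, 1.08 and 0 CPM, which overlapped with each other and with CMP. Its F test gave an adjusted p of 0.0462 in edgeR, and it did not pass without the low-count filter. Across the 46 libraries, Spearman's rho of Cd14 was 0.638 with Tlr2 and 0.211 with Tlr4, a description over libraries that share populations and depth.

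Among the endosomal receptors, Tlr7 had its highest WT mean in CLP (libraries at 2.49, 13.9, 13.0 and 13.9 CPM), and Tlr9 and Tlr13 were low. Tlr7, which binds single-stranded RNA, had 4.14, 2.75 and 6.58 CPM in WT ST-HSC, 0.654, 0.422, 2.01 and 1.54 CPM in WT CMP and no counts in all 4 WT MEP libraries. WT CMP lay at a mean of 1.16 CPM, at least 25.2-fold higher than WT MEP against the floor of 3 counts per library. This floor covers counting error alone. WT MEP was called lower than WT CMP (edgeR adjusted p = 0.014). Of the 4 MEP libraries labelled Tet2-/-, 3 had no counts of Tlr7 and 1 had 90 counts (1.37 CPM). WT ST-HSC lay above every WT LT-HSC library (0, 1.46 and 0 CPM), although that step did not pass (edgeR log2 fold change 3.15 ± 1.82 (SE), adjusted p = 0.674). Tlr9 had no counts in any LT-HSC or MEP library and at most 4.90 CPM elsewhere. Tlr13 was at 0 in all LT-HSC, ST-HSC and CLP libraries and reached 1.64 CPM in 1 WT CMP library. Levels of Tlr9 and Tlr13 were therefore too low to compare in most populations.

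Myd88 was the most abundant and most even of the 10 genes. Every one of the 46 libraries had counts, from 10.4 to 111 CPM. Its WT means were 37.0 ± 4.89 CPM in LT-HSC, 37.4 ± 15.2 CPM in ST-HSC, 41.2 ± 5.98 CPM in CMP, 54.6 ± 6.67 CPM in GMP, 31.1 ± 6.72 CPM in MEP and 41.5 ± 5.34 CPM in CLP (SD, n = 3 for the stem cells and 4 for the others). The 4 WT GMP libraries lay above all WT MEP and LT-HSC libraries, and neighbours in the order of the means (GMP, CLP, CMP, ST-HSC, LT-HSC, MEP) overlapped. Myd88 was not among the genes that passed the F test (edgeR adjusted p = 0.0647), although it passed with DESeq2.

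Ticam1, the adaptor of Tlr3 and Tlr4, was highest in CLP and GMP. WT CLP libraries held 19.0, 9.29, 22.9 and 16.1 CPM and WT GMP libraries 9.74, 8.92, 7.16 and 19.3 CPM. WT ST-HSC held 3.15, 6.43 and 1.88 CPM and WT MEP 4.56, 2.39, 4.17 and 0.734 CPM. CLP lay above ST-HSC in every WT library and was called higher (edgeR log2 fold change 2.16 ± 0.719 (SE), adjusted p = 0.0304), while CLP and GMP overlapped. Leaving out 1 library of this comparison gave 0 to 2 called genes: without WT CLP replicate 2, which alone had Cd14, Cd14 was called lower in CLP, and the call of Ticam1 was lost without WT ST-HSC replicate 2 or 5 or without WT CLP replicate 4. It was also lost with the replicate block, without the low-count filter and in a fit of the 2 populations alone.

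The windows of the 2 adaptors are printed because these genes, unlike the receptors, were read in every library of the first set. Myd88 (chr9:119339969-119340268, minus strand) held 1 ISRE core at position -40 and 13 CpG dinucleotides. Ticam1 (chr17:56276718-56277017, minus strand) held 1 GAGGAA at position -30 and 10 CpG dinucleotides.
Myd88: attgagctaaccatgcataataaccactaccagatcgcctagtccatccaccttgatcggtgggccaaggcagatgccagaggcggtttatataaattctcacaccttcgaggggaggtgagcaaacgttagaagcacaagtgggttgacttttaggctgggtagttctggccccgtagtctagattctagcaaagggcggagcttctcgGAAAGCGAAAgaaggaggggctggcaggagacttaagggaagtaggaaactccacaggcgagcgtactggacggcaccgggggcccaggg
Ticam1: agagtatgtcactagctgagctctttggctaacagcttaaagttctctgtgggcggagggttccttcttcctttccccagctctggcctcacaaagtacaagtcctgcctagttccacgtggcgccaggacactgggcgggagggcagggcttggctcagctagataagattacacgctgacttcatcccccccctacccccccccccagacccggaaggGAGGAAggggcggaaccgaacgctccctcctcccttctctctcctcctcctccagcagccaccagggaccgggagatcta
Both adaptors thus had more CpG dinucleotides in this window than the median of 7. Of the remaining windows, that of Tlr13 held 1 GAGGAA and that of Tlr9 held 2 GAGGAA and no CpG dinucleotide.

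Per length, the order of levels in GMP was Myd88 with a mean of 22.1 CPM per kb of exon over the 8 libraries of both genotypes, Cd14 with 14.02, Tlr2 with 10.7, Ticam1 with 4.07, Tlr4 with 2.28, Tlr6 with 1.27 and Tlr1 with 1.08. In MEP, Myd88 remained at 14.6 CPM per kb, and Tlr2, Tlr4 and Cd14 were at 0.150, 0.0722 and 0.00568 CPM per kb. MEP libraries thus held the adaptor within the range of other populations beside low levels of Tlr2, Tlr4 and Cd14.

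The separation of GMP from MEP was read in both genotypes, chosen after the values were seen. In WT, 7 of the 7 genes that passed the filter in these 8 libraries (Tlr1, Tlr2, Tlr4, Tlr6, Myd88, Ticam1 and Cd14) had every GMP library above every MEP library, against 26.6% of all 16094 features. In libraries labelled Tet2-/- 6 of 8 did so, against 29% of features, and the exceptions were Tlr7 and Myd88. For GMP above CMP the counts were 3 of 8 in WT (Tlr1, Tlr2 and Cd14) against 15.7% of features, and 6 of 8 in libraries labelled Tet2-/- (Tlr1, Tlr2, Tlr4, Tlr6, Ticam1 and Cd14) against 18.8%. A gene that passed the filter only through GMP had to differ, so these counts are descriptions.

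Steps along the tree gave few calls, where a call needs an adjusted p under 0.05 and at least a 2-fold change in the fit of all WT libraries. None of the 9 genes tested was called between ST-HSC and LT-HSC (0.145% of features were called higher and 0.03% lower), and none had an unadjusted p under 0.05 or was called by DESeq2. None was called between CMP and ST-HSC (3.77% higher, 1.23% lower), where Tlr1 and Tlr13 had an unadjusted p under 0.05 and DESeq2 called Tlr1 alone. These values rest on 1 and 2 of the 4 WT CMP libraries with counts, against ST-HSC libraries all at 0, and support nothing. None was called between GMP and CMP (1.6% higher, 1.54% lower), and none had an unadjusted p under 0.05 there or was called by DESeq2. A fit of these 2 populations alone called 2 of them, Tlr2 and Cd14. Leaving out WT CMP replicate 4, the 1 WT CMP library with Tlr1 counts, called Tlr1, a call that its removal fixed. Tlr7 was called lower in MEP than in CMP (0.93% of features higher, 5.52% lower), and DESeq2 also called Tlr2 and Cd14 lower. In that step the median of the 9 genes was -2.93 on the log2 scale against -0.12 over all features. That median is the fitted value of Tlr1, which had 87 counts in 1 WT CMP library and 3 counts in 1 WT MEP library. It is no support for a shift of the group. Ticam1 was called higher in CLP than in ST-HSC (10.2% higher, 14.3% lower).

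The second question was whether the libraries labelled Tet2-/- differed from WT within a population. None of the genes was called in any of the 6 populations by edgeR, and DESeq2 called 1, Tlr6 in CMP. In LT-HSC 7 genes were tested, with a median log2 fold change of -0.06 against 0.06 over all features, and 0.0245% of features were called. In ST-HSC 7 were tested, with a median of -0.12 against 0.04 (0.0185% of features called), and in CLP 6 were tested, with a median of 0.27 against 0.07 (0.00766% called). In the 3 committed myeloid populations 4.57% of features in CMP, 4.37% in GMP and 4.36% in MEP were called in these separate edgeR fits, while a fit of all libraries called most in CLP (1477, against 285, 219 and 423). There the medians were 0.01 over 7 genes in CMP, 0.32 over 8 in GMP and -0.54 over 5 in MEP, against 0.03, 0.03 and 0.05 over all features. Unadjusted p values under 0.05 were found for 1 gene in CMP (Tlr6) and 2 in GMP (Tlr4 and Tlr2).

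**Figure D2:**
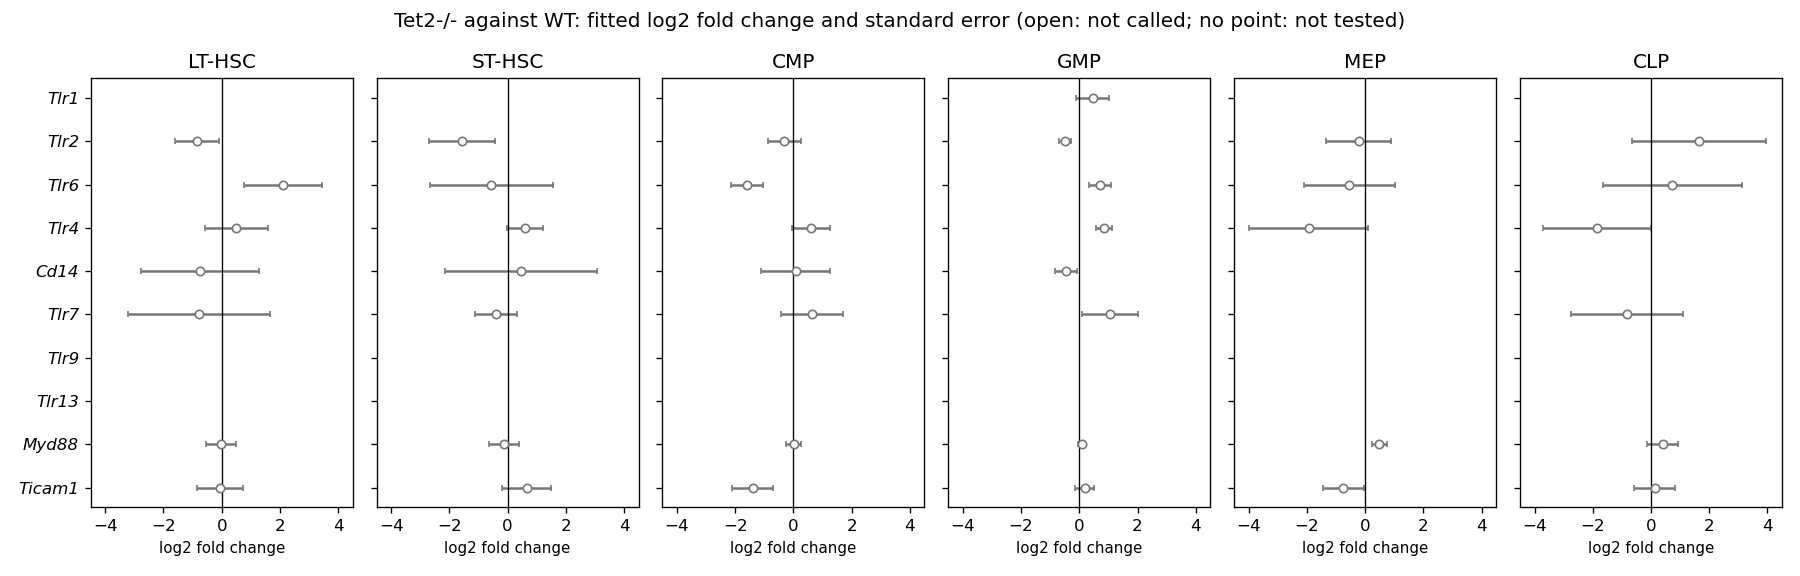
Fitted log2 fold change of libraries labelled Tet2-/- against WT on the horizontal axis, with its standard error, for each gene and population. Open points are genes tested and not called, and a missing point is a gene below the count filter. No gene was called, and the widest bars belong to genes with libraries at or near 0, in LT-HSC, ST-HSC, MEP and CLP.

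Tlr4 in GMP was 1 of 2 receptors whose libraries did not overlap between genotypes, beside Tlr6 in CMP. WT GMP held 8.04, 10.5, 11.8 and 4.93 CPM, and GMP labelled Tet2-/- held 14.2, 20.9, 14.1 and 16.9 CPM. The highest WT value lay below the lowest of the others, and 13.2% of features in GMP were without overlap in either direction. The mitochondrial share of counts separated the same libraries, with 3.64 to 4.60% in WT and 4.74 to 5.09% in those labelled Tet2-/-. The sum of 6 LT-HSC genes did so too (12.0 to 16.09 against 16.15 to 24.3 CPM). So did that of 8 genes of the sorting markers (1270 to 1371 against 1406 to 1616 CPM). The part of these in the difference was not tested. The fitted difference of Tlr4 was 0.85 ± 0.286 on the log2 scale (SE, n = 4 against 4) and did not pass in edgeR (adjusted p = 0.125). DESeq2 gave an adjusted p of 0.0404 at less than 2-fold, and over all alternatives the adjusted p ran from 0.0404 to 1.

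Tlr2 in GMP moved the other way. Its values were 45.9, 39.4, 32.4 and 30.7 CPM in WT and 37.3, 28.5, 22.3 and 20.4 CPM in libraries labelled Tet2-/-. The groups overlapped, and the difference of -0.49 ± 0.215 (log2, SE) did not pass in edgeR (adjusted p = 0.271). The other genes tested in GMP overlapped between the genotypes, from -0.47 for Cd14 to 1.07 for Tlr7 on the log2 scale, and Myd88 differed by 0.08 ± 0.128 (SE).

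Tlr6 in CMP was the other separation. WT CMP held 3.66, 1.96, 4.90 and 1.69 CPM, and CMP labelled Tet2-/- held 0.737, 1.66, 0.599 and 1.03 CPM. All 4 libraries labelled Tet2-/- lay below the 4 WT libraries, a separation in either direction that 15.8% of features in CMP showed. The difference was -1.59 ± 0.559 (log2, SE) with an adjusted p of 0.14 in edgeR. DESeq2 called it (adjusted p = 0.0258), and the other alternatives gave 0.105 to 1. The sum of 6 MEP genes also separated these libraries, with 597 to 1616 CPM in WT CMP and 2799 to 5631 CPM in CMP labelled Tet2-/-; of the 6, Epor and Car1 were called higher and Klf1 lower, and none was at 0. The mitochondrial share was 5.94 to 6.57% and 7.85 to 8.37%. The part of both in the difference was not tested. Reads that Tlr6 can share with Tlr1 are a limit here, and their part was not tested. Tlr1 had 87 counts in WT replicate 4, which had the most Tlr6 counts (388). Tlr6 had 46 to 143 counts in the libraries labelled Tet2-/-. The lowest of these was in replicate 4, where Tlr1 had 56 counts, and the highest in replicate 3, where Tlr1 had 0. In GMP, Tlr6 was higher in libraries labelled Tet2-/- by 0.70 ± 0.376 (log2, SE), with an adjusted p of 0.392 in edgeR.

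**Figure D3:**
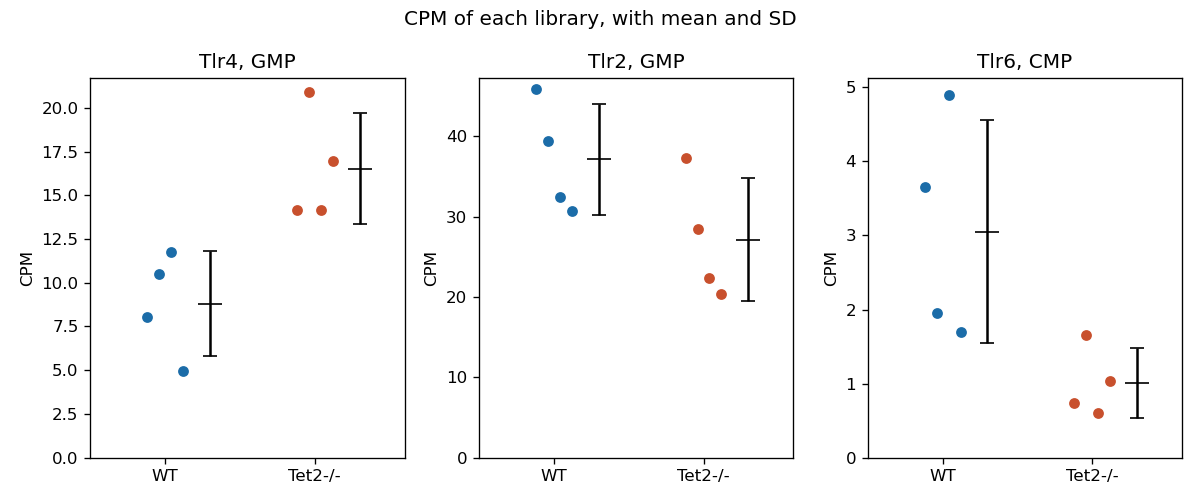
CPM, on a vertical axis from 0, of Tlr4 and Tlr2 in GMP and of Tlr6 in CMP, for WT and for libraries labelled Tet2-/-. Points are libraries, and the bars beside them are the mean and SD of 4 libraries. The points of Tlr4 and of Tlr6 do not overlap between the genotypes, and those of Tlr2 do.

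No gene separated by genotype in the other 4 populations, where 7.04% of features in LT-HSC, 8.2% in ST-HSC, 13.1% in MEP and 4.04% in CLP did. Ticam1 in CMP came near: WT held 3.67, 4.59, 7.05 and 12.7 CPM and libraries labelled Tet2-/- 1.26, 6.45, 2.25 and 0.633 CPM; 3 of the 4 lay below all WT libraries (log2 fold change -1.40 ± 0.708 (SE), edgeR adjusted p = 0.332). Myd88 in MEP was 29.0, 25.9, 28.6 and 41.0 CPM in WT and 24.7, 59.8, 48.3 and 43.4 CPM in libraries labelled Tet2-/- (0.49 ± 0.264 (log2, SE), edgeR adjusted p = 0.422). Whether the difference between genotypes itself differed between populations was tested for all 10 genes in a fit of the 46 libraries. None passed, none had an unadjusted p under 0.05, and 2.65% of 22360 features passed.

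In CLP the libraries disagreed with each other within a genotype. WT CLP replicate 2 held 3251 counts of Cd14 (61.7 CPM), and the other 3 WT CLP libraries held none. Tlr2 was at 8.96 and 12.7 CPM in WT replicates 2 and 3 and at 0 in replicates 4 and 5. Tlr6 was at 13.5 and 14.4 CPM in replicates 3 and 5 and at 0 in replicates 2 and 4. Each of these genes was thus read at several CPM in some libraries and not at all in others.

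The libraries labelled Tet2-/- had the same pattern. Tlr4 was at 36.6 and 9.87 CPM in replicates 4 and 5, at 4 counts in replicate 2 and at 0 in replicate 3, whereas all 4 WT CLP libraries had it. Tlr7 was at 24.9 CPM in replicate 5 and at most 0.967 CPM in the other 3, against 2.49, 13.9, 13.0 and 13.9 CPM in WT. Tlr9 reached its highest value, 4.90 CPM, in replicate 3. Only Myd88 (31.4, 111, 21.3 and 60.9 CPM) and Ticam1 (7.98, 19.4, 31.0 and 16.9 CPM) were above 1 CPM in all 4.

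Markers of other cells also varied among CLP libraries. The 6 GMP genes summed to 3177 and 1239 CPM in WT replicates 2 and 3 and to 4.77 and 28.4 CPM in WT replicates 4 and 5. In libraries labelled Tet2-/- they summed to 2.65 CPM in replicate 2 and to 12445, 2278 and 4299 CPM in replicates 3, 4 and 5. Tlr2 was above 1 CPM in exactly these 5 libraries with over 1000 CPM of GMP genes, while in WT replicates 4 and 5, which had few GMP transcripts, Tlr4 was at 76.6 and 12.6 CPM and Tlr7 at 13.0 and 13.9 CPM, and in replicate 2 labelled Tet2-/-, which had the fewest, Tlr4 was at 0.0515 CPM and Tlr7 at 0. That library also had the highest mitochondrial share of the 8 CLP libraries (12.5%, against 2.41 to 7.82%) and the fewest features detected (13754). The sum of 6 B cell genes was 573 to 1223 CPM in WT CLP and 133 to 676 CPM in CLP labelled Tet2-/-, with Pax5 at 0 in WT, that of 7 dendritic cell genes 119 to 295 and 46.4 to 63.4 CPM with Cd209a at 0, that of 8 monocyte and macrophage genes 755 to 2044 and 205 to 1736 CPM with C1qa and C1qb at 0, and that of 6 T and NK cell genes 206 to 799 and 465 to 2222 CPM with Cd3e at 0. The last 2 sums were not particular to CLP, with 1184.5 to 1961.6 and 600 to 769 CPM in WT GMP. The part of all these markers in the levels of the receptors was not tested. Without the 2 WT CLP libraries with over 1000 CPM of GMP genes, Tlr1, Tlr2, Tlr4, Tlr7, Ticam1 and Cd14 passed the WT F test. Those 2 were the only WT CLP libraries with Tlr2 counts, and replicate 2 alone had Cd14 counts. Leaving them out set both genes to 0 in WT CLP, and Tlr1 had to differ, so for these genes the pass is no support. Without CLP, Tlr1, Tlr2, Tlr7, Myd88 and Cd14 passed the F test. Both alternatives were chosen after seeing the data.

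**Figure D4:**
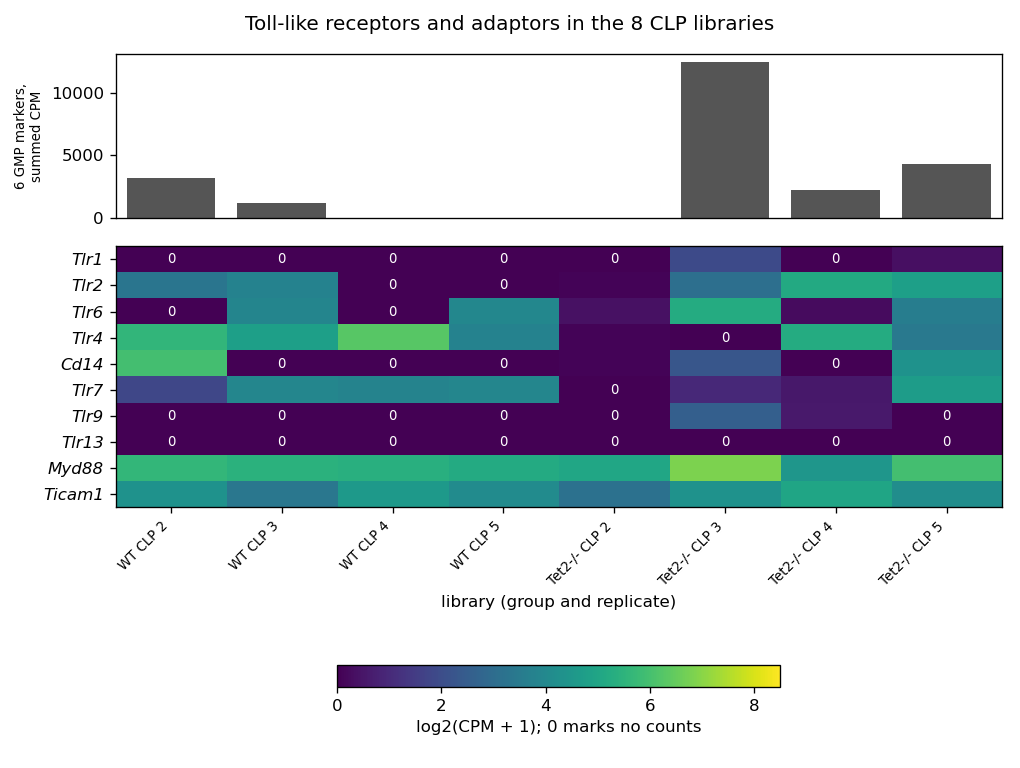
The 8 CLP libraries by group and replicate. The upper panel gives the summed CPM of 6 GMP marker genes, and the lower panel the log2(CPM + 1) of each gene as colour, with 0 marking no counts. Cd14, Tlr2, Tlr4, Tlr6 and Tlr7 are high in some libraries and absent in others of the same group, while Myd88 and Ticam1 are present in all 8.

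In LT-HSC of the second set, read as support, Tlr1, Tlr9, Tlr13 and Ticam1 had no counts in any of the 9 libraries, and Tlr7 had 1 count in 1. Tlr4 had 248 counts in WT replicate 1 and 4100 in Tet2;Sting DKO replicate 3 and none in the other 7. Tlr2 was read in 4 libraries (9.12 and 24.1 CPM in WT, 24.7 CPM in Sting-/- and 37.1 CPM in Tet2;Sting DKO). Myd88 was at 167, 120 and 0 CPM in WT, 0.0384, 36.1 and 92.5 CPM in Sting-/- and 95.0, 33.6 and 111 CPM in Tet2;Sting DKO. Tlr6 was at 89.9 CPM in Tet2;Sting DKO replicate 1, 5.49 CPM in Sting-/- replicate 3 and 0.633 CPM in WT replicate 1, and at 0 in the other 6.

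Cd14 was the gene with counts in all 9. WT libraries held 153, 329 and 22.3 CPM, Sting-/- libraries 84.8, 23.6 and 68.6 CPM, and Tet2;Sting DKO libraries 32.2, 66.5 and 54.8 CPM. The groups overlapped, because WT replicate 3 was the lowest of all. The 2 sets were counted and scaled separately, so the WT LT-HSC values of the first set (2.38, 1.30 and 0 CPM) are given beside them without a test. Comparison of Tet2;Sting DKO with WT gave -1.78 ± 0.868 (log2, SE) for Cd14 and did not pass in edgeR (adjusted p = 0.467).

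None of the genes was called in the second set by edgeR or DESeq2, and none had an unadjusted p under 0.05. Tet2;Sting DKO against WT had 3 genes tested and 0.657% of features called, Sting-/- against WT had 3 tested and 0% called, and Tet2;Sting DKO against Sting-/- had 2 tested and 0.159% called. For Myd88 the fitted differences were -0.33 ± 1.73, -1.16 ± 2.36 and 0.94 ± 1.70 (log2, SE) in this order. Each standard error was larger than its difference, so no difference of this size was detectable here. The comparisons share libraries and were not set against each other.

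**Figure D5:**
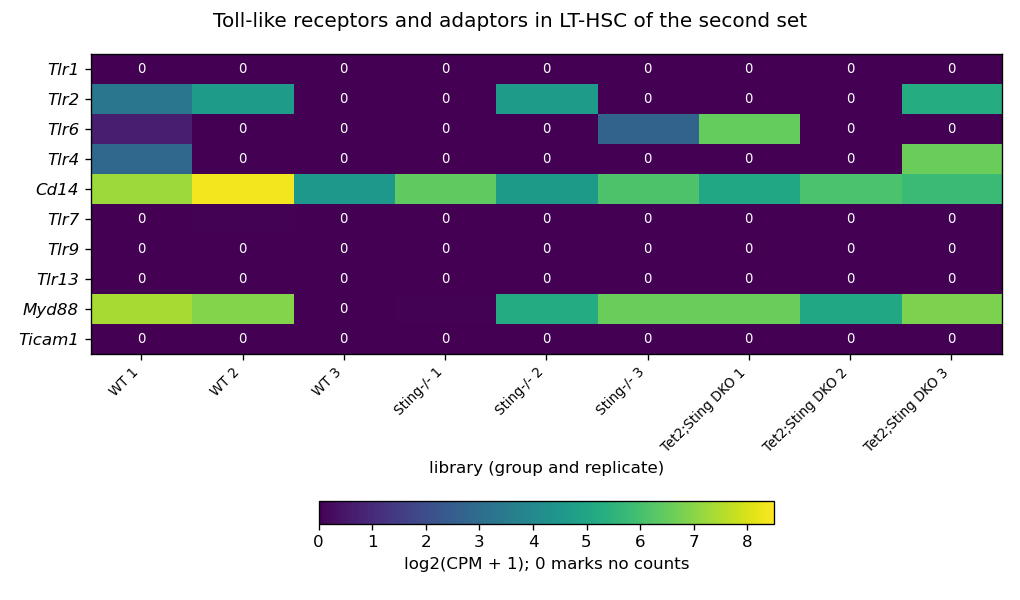
The 9 LT-HSC libraries of the second set by group and replicate, with log2(CPM + 1) of each gene as colour and 0 marking no counts. Cd14 is present in all 9 libraries, Myd88 is at or near 0 in WT replicate 3 and Sting-/- replicate 1, and Tlr1, Tlr9, Tlr13 and Ticam1 are at 0 throughout.

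The rest of the pathway was read from a list of 48 genes ordered by role. In WT, 29 of the 46 tested passed the F test over populations (44.6% of all features). Between GMP and CMP 5 were called higher and 1 lower (1.6% and 1.54% of features). Those higher included Unc93b1, which carries endosomal receptors to their compartment (1.73 ± 0.327 (log2, SE), edgeR adjusted p = 0.00312), and the receptor chaperones Hsp90b1 (1.48 ± 0.315) and Cnpy3 (1.08 ± 0.235). Tnfaip3 and Tnip1, which restrain NF-kB signalling, were the others. The 1 lower was the scavenger receptor Cd36. Tlr1, Tlr2 and Cd14 also stood higher in every WT GMP library than in every WT CMP library.

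Between MEP and CMP, 8 of the list were called lower and 1 higher, against 5.52% and 0.93% of features. Unc93b1 had 24.5 to 66.6 CPM in WT CMP and 0.587 to 2.06 CPM in WT MEP (-5.17 ± 0.382 (log2, SE), edgeR adjusted p = 3.49e-08). Ticam2, the bridge from Tlr4 to Ticam1, had 13.5 to 18.4 and 0 to 0.620 CPM, and Irf5, a transcription factor downstream of Myd88, had 7.97 to 11.01 and 0.0819 to 0.514 CPM. Ly86, Cnpy3, Pik3ap1, Sigirr and Tnip1 were the other 5 lower. Tnfaip3, the A20 enzyme that shuts off NF-kB signalling, was the 1 higher (2.41 ± 0.427, edgeR adjusted p = 0.000878).

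Between CLP and ST-HSC 10 of the 46 were called higher and 1, Tlr3, lower, against 10.2% and 14.3% of features. Unc93b1 had 245 to 377 CPM in WT CLP and 13.6 to 20.9 CPM in WT ST-HSC (4.16 ± 0.409 (log2, SE)), and Hsp90b1, Ly86, Irak2, Irf3, Irf5, Il1rl1, Ube2v1, Tnfaip3 and Tnip1 were also called higher. Between CMP and ST-HSC 3 (Unc93b1, Ly86 and Il1rl1) were called higher and 2 lower, against 3.77% and 1.23% of features, the latter being Ly96, the MD-2 subunit of the Tlr4 complex (-2.06 ± 0.390 (log2, SE)), and Tnfaip3. Between ST-HSC and LT-HSC none was called. Of the receptors outside the 10 genes, Tlr5, Tlr8 and Tlr11 stayed at or below 1.09 CPM in every library, Tlr12 reached 8.59 CPM in 1 CLP library, and Tlr3 was read in the stem cells (0.0492 to 4.64 CPM in LT-HSC) and not in CLP.

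Between genotypes, few genes of the list were called, at shares near those over all features. In GMP 3 of 44 tested were called (4.37% of features), all lower in libraries labelled Tet2-/-, as were 672 of the 723 features called there. Peli1, a ubiquitin ligase acting on Irak kinases, had 28.8 to 64.6 CPM in WT and 3.43 to 8.43 CPM in libraries labelled Tet2-/- (-3.04 ± 0.348 (log2, SE), edgeR adjusted p = 0.000211). Tnfaip3 had 50.3 to 110 and 6.44 to 17.7 CPM (-2.78 ± 0.334, edgeR adjusted p = 0.000315), and Ly86, the MD-1 partner of Cd180, had 45.3 to 84.5 and 19.3 to 36.4 CPM (-1.15 ± 0.249, edgeR adjusted p = 0.0168). In CMP 2 of 43 were called lower (4.57% of features called), Peli1 and the inhibitory kinase Irak3 (-1.07 ± 0.264, edgeR adjusted p = 0.0411), and in MEP 1 of 39 (4.36% of features called), Tnfaip3 (-2.13 ± 0.448, edgeR adjusted p = 0.0232). The sum of 5 erythroid genes also separated the MEP libraries, with 154 to 434 CPM in WT and 80.3 to 107 CPM in those labelled Tet2-/-. Of the 5, Hba-a1 and Hba-a2 were called lower and none was at 0. As given above, the CMP libraries separated by the sum of 6 MEP genes and by mitochondrial share. The GMP libraries separated by mitochondrial share and by 2 marker sums. The part of all these in the differences was not tested. None of the list was called in LT-HSC (41 tested), ST-HSC (42) or CLP (41). The medians of the list were -0.04, -0.08, -0.13, 0.02, 0.13 and -0.18 on the log2 scale in LT-HSC, ST-HSC, CMP, GMP, MEP and CLP. Peli1 was the 1 of 47 whose difference between genotypes differed between populations (edgeR adjusted p = 0.028). Of all features, 2.65% passed this test, so 1 of 47 is near the share over all features.

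Among 5 genes with a mean of at least 5 CPM, the genes most alike in profile over the 46 libraries were found by Spearman's rho. For Tlr2 they were Prtn3 (0.845), Ms4a6c and Anxa3 (0.804), and for Cd14 they were Cldn15 (0.831), Anxa3 (0.816) and Ly6a2 (0.812). Prtn3 is a granule protease gene and 1 of the GMP markers, and Anxa3 was on both lists. For Tlr4 they were Plin3 (0.743), Ckap4 (0.735) and Alcam (0.697), for Myd88 Surf6 (0.738), Atg7 (0.711) and Lta4h (0.697), and for Ticam1 Adamts10 (0.858), Acap1 (0.843) and Hcls1 (0.824). These values describe libraries that share their population, and no test was made of them.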

How the data were processed

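Both tables hold raw gene counts as deposited: the authors trimmed reads with Trim Galore and aligned them with HISAT2 to mm10, and the counting program, annotation and strand setting are not given in the sources used here. The submitters' processing notes also name mm9 and DESeq2. From these counts, low features were filtered with filterByExpr, libraries scaled by TMM, and groups compared with the quasi-likelihood test of edgeR 4.0.16 in R 4.3.3 over all features, with Benjamini-Hochberg adjustment. A call needed an adjusted p under 0.05 and at least a 2-fold change, and F tests the adjusted p alone. Fitted values used a prior count of 2. DESeq2 1.42.0, other scaling, filters, fits and left-out libraries were alternatives. Lengths came from GENCODE vM21 exons. The 2 tables were never pooled. In the second table, broken lines (2) and repeated symbols (2) were left out. Scripts were tested on simulated data. The 10 genes, the gene lists and the tests were chosen with earlier results of these data known. Named genes were all 10, the pathway genes called between neighbouring WT populations or between genotypes, some by name only where the rule asked for values, and the 3 most alike by Spearman's rho. Total counts limit only counting error, which is small beside the spread between libraries.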

Additional observations from a re-analysis of the deposited data

Results flagged for a closer look

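Of 74 groups of 4 libraries, 10 had a highest or lowest library far from the other 3 by Dixon's criterion. Chance meets it in about 1 of 20 groups of normally distributed values. Its rate for low CPM values with libraries at 0, as in some groups here, was not measured. In GMP, Tlr1 was at 5.51 CPM in WT replicate 5 (the others at 1.98 to 2.36 CPM), and Tlr9 at 0.515 CPM in replicate 3 labelled Tet2-/- (0 to 0.0854 CPM). In CMP, Tlr2 was at 20.6 CPM in WT replicate 2 (7.10 to 9.19 CPM), while replicate 5 labelled Tet2-/- held 2.70 CPM of Tlr4 (6.09 to 6.52 CPM) and 9.29 CPM of Cd14 (0.156 to 1.17 CPM). In ST-HSC, Cd14 was at 5.95 CPM in replicate 5 labelled Tet2-/- (0 to 0.0637 CPM). In CLP, Tlr7 was at 2.49 CPM in WT replicate 2 (13.0 to 13.9 CPM) and at 24.9 CPM in replicate 5 labelled Tet2-/- (0 to 0.967 CPM). Replicate 3 of CLP labelled Tet2-/-, the CLP library with the highest sum of GMP genes, held 2.72 CPM of Tlr1 (0 to 0.284 CPM) and 4.90 CPM of Tlr9 (0 to 0.479 CPM). The causes were not tested.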

How the results depend on the processing

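Of 508 recomputed fold changes between genotypes in the first set, 48 changed sign and 1 gained a call (Tlr6 in CMP with DESeq2); none was called at first, so no call could be lost. Counts of called genes among the 10 moved as follows, and the cause was not tested. Tet2-/- against WT in CMP gave 1 with DESeq2 and 1 by unadjusted p, against 0. The F test over WT populations gave 6, 5 without the low-count filter (Cd14 lost), 2 to 4 without one replicate number, and 6 with DESeq2, where Myd88 passed and Tlr1 did not. CMP against ST-HSC gave 1 with DESeq2, against 0. GMP against CMP gave 1 in a fit of all libraries, 2 in a fit of the 2 groups alone and 0 to 1 without one library, against 0. MEP against CMP gave 5 in a fit of all libraries, 3 in a fit of the 2 groups and 3 with DESeq2, against 1. CLP against ST-HSC gave 0 without the filter, 0 in a fit of the 2 groups, 0 to 2 without one library and, chosen after seeing the data, 2 without the CLP libraries with GMP genes, against 1. The gene gained in the last of these was Tlr2, called lower in CLP. The libraries left out were the only WT CLP libraries with Tlr2 counts, so this call is no support.

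Whether same-numbered libraries of different populations share a mouse is not stated. Correlations of their deviations were -0.0799 to 0.154 between genotypes of a population and between WT populations, among the latter mostly above 0 (0.0937 to 0.154 for CMP and GMP); populations labelled Tet2-/- were not compared with each other. With the replicate block, 5 genes passed the F test (Tlr2 lost), 2 (Tlr7 and Cd14) were called in MEP against CMP and 0 in CLP against ST-HSC, and no genotype comparison gained a call.

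Over all features, counts of calls moved by more than 1.5 times under several alternatives. Between genotypes, edgeR called 4 features in LT-HSC, 3 in ST-HSC, 734 in CMP, 723 in GMP, 651 in MEP and 1 in CLP. DESeq2 called 233, 332, 1234, 1071, 1045 and 472 in this order, and a fit of all libraries 20, 21, 285, 219, 423 and 1477. Along the WT tree, DESeq2 called 774 for ST-HSC against LT-HSC (35 with edgeR), 2247 for CMP against ST-HSC (1001), 1442 for GMP against CMP (630) and 2372 for MEP against CMP (1291). A fit of the 2 groups alone called 2247 for CLP against ST-HSC (4901). In the second set, DESeq2 called 1351 for Tet2;Sting DKO against WT (64), 414 for Sting-/- against WT (0) and 806 for Tet2;Sting DKO against Sting-/- (15). The difference between genotypes differed between populations for 592 features, and for 3425 without the CLP libraries with GMP genes, chosen after seeing the data; none of the 10 genes was among them.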
